A study of Mus musculus with 4 samples.

Results

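H3K27ac, the acetylation of lysine 27 of histone H3, was measured at the loci of Klf2, Klf4 and Klf5 in mouse embryonic stem (ES) cells with and without expression of Zscan4. The loci were taken as windows of the mouse build mm9: chr8:74810000-74870000 for Klf2, chr4:55440000-55570000 for Klf4 with the distal enhancers placed near 55475000 to 55490000, and chr14:99670000-99740000 for Klf5. Every region of the deposited list that overlapped a window was included. This gave 19 regions of the 23946 listed, 6 at Klf2, 4 at Klf4 and 9 at Klf5, taken by position. Mouse MC1-ZE7 ES cells of strain 129S6/SvEvTac were grown without feeders in medium with serum and leukemia inhibitory factor (LIF) and sorted on Emerald, the line's fluorescent reporter of Zscan4. Emerald-negative cells (Zscan4-) and the high fraction of Emerald-positive cells (Zscan4+) gave 2 chromatin immunoprecipitation (ChIP-seq) libraries each, with the same H3K27ac antibody. Both groups therefore carry the reporter, come from the same line and medium, and differ by the sort gate. The labels do not say whether replicates were separate cultures or sorts. The limma p-values therefore measure a spread between these libraries that is shared over regions of like level and may be partly technical. The libraries labelled replicate 2 were amplified before size selection and cut to a wider range of fragment sizes, so the spread within a group includes this difference in preparation.

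Klf2, Klf4 and Klf5 are zinc-finger transcription factors of the Krüppel-like family that bind GC-rich DNA, including CACCC and GC boxes, and overlap in maintaining the naive state of mouse ES cells. Klf4 is a target of LIF signalling through Stat3 and one of the factors used to reprogram somatic cells, Klf2 responds to Mek-Erk signalling, and Klf5 supports self-renewal and the early embryonic lineages. H3K27ac marks active promoters and enhancers, so its level over a locus is read as a measure of regulatory activity there, and not of RNA. Zscan4 marks a transient state of ES cells that shares transcripts with the 2-cell embryo.

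The promoters of Klf2 and Klf4 are shown because they are the regulatory sequences of these genes that can be read here. Each run is the 250 bases before the RefSeq start on build GRCm38.p6, 5′ to 3′ on the gene's strand, with capitals for CACCC (or GGGTG on the other strand) and GGGCGG (or CCGCCC). Klf2, chr8:72318812-72319061, plus strand, and Klf4, chr4:55532476-55532725, minus strand, read as follows.
Klf2: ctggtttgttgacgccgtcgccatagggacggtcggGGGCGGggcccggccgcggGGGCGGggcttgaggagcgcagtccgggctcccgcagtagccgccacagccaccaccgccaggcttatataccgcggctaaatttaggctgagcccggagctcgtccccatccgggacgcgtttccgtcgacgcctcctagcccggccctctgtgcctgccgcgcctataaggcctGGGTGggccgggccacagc
Klf4: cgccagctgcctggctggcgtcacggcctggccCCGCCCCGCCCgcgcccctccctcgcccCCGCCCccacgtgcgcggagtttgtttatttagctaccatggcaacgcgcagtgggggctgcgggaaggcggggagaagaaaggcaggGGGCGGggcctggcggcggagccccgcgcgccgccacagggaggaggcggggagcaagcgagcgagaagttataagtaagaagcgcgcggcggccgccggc
RefSeq's table matched 2 of the 3 genes, without Klf5. The Klf2 sequence held 1 CACCC and 2 GGGCGG matches, and the Klf4 sequence held 0 CACCC and 4 GGGCGG matches, 2 of which overlap by a base. Of 32851 promoters of the same length, 52.0% held CACCC and 32.7% held GGGCGG. These shares are not matched for base composition: GC made up 71.2% of the Klf2 and 74.0% of the Klf4 sequence, against a median of 52.4% over all promoters. TTCCNGGAA, the palindromic site that Stat factors bind, had 0 matches in either sequence and was in 0.9% of all promoters. The windows above are on mm9 and these sequences are on GRCm38.p6, so no listed region was placed on a promoter.

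The values are RPKM, the reads of a region per kilobase and library depth. Levels of different regions are compared per length in this way, but a narrow region holds only the stretch listed. Recovered totals were 9939191 to 18284733 reads per library, and the median region of the list held 56 to 107 reads. Zscan4+ replicate 1 had the lowest share of its reads in listed regions, 12.97%. The share was 16.74% and 17.88% in Zscan4- replicates 1 and 2, and 19.14% in Zscan4+ replicate 2. Over the whole list, Zscan4+ replicate 2 lay above Zscan4+ replicate 1 in 92.7% of regions, and it did so in 18 of the 19 Klf regions. Zscan4+ minus Zscan4-, the median log2 difference of the list was -0.17 in the fit of both replicates, -0.37 for replicate 1 alone and 0.05 for replicate 2 alone. After centring each library on its median it was -0.07, and after quantile normalization -0.04, so differences here are read against that shift.

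In the 3 windows, 1 region, at Klf2, was called higher in Zscan4+ cells, and the other 18 did not pass the test in either direction. Of the 19 regions, 1 was higher and 0 were lower by limma (adjusted p up to 0.05). At an unadjusted p under 0.05 the same 1 region passed. Over the list 8.01% of regions were called higher and 6.82% lower, so 1 of 19 is near the background and says nothing of the loci as a group. This main fit neither pairs nor centres the libraries. With a replicate block, which pairs the libraries, and median centring, 3 of the 19 were called higher and 2 lower. That setting called 20.7% of all regions higher and 24.5% lower. In it 10 of the 19 had an unadjusted limma p under 0.05, a share not computed over the list. In the main fit the median log2 difference of the 19 was -0.09, against -0.17 over all regions. For the other 18 regions the 95% intervals of that fit together ran from -1.29 to 1.29. A change of 2-fold, which is 1 on the log2 scale, lies inside the interval of several of them. The width of the intervals depends on the fit. The median standard error of the list was 0.36 in the main fit and 0.16 with the block and centring. Averaged over its regions with weights by width, the Klf2 locus stood at 23.7 ± 0.52 RPKM without and 23.94 ± 7.32 RPKM with Zscan4 expression (SD, n = 2). The Klf4 locus had 4.87 ± 0.28 and 5.09 ± 1.08 RPKM, and the Klf5 locus 5.33 ± 0.22 and 5.5 ± 0.89 RPKM (SD, n = 2). The log2 differences of these weighted means were -0.02, 0.05 and 0.04 for Klf2, Klf4 and Klf5, each smaller than the spread between replicates. The exact two-sided permutation p was 1.0 for each, and 2 libraries against 2 cannot go below 0.333.

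**Figure D1:**
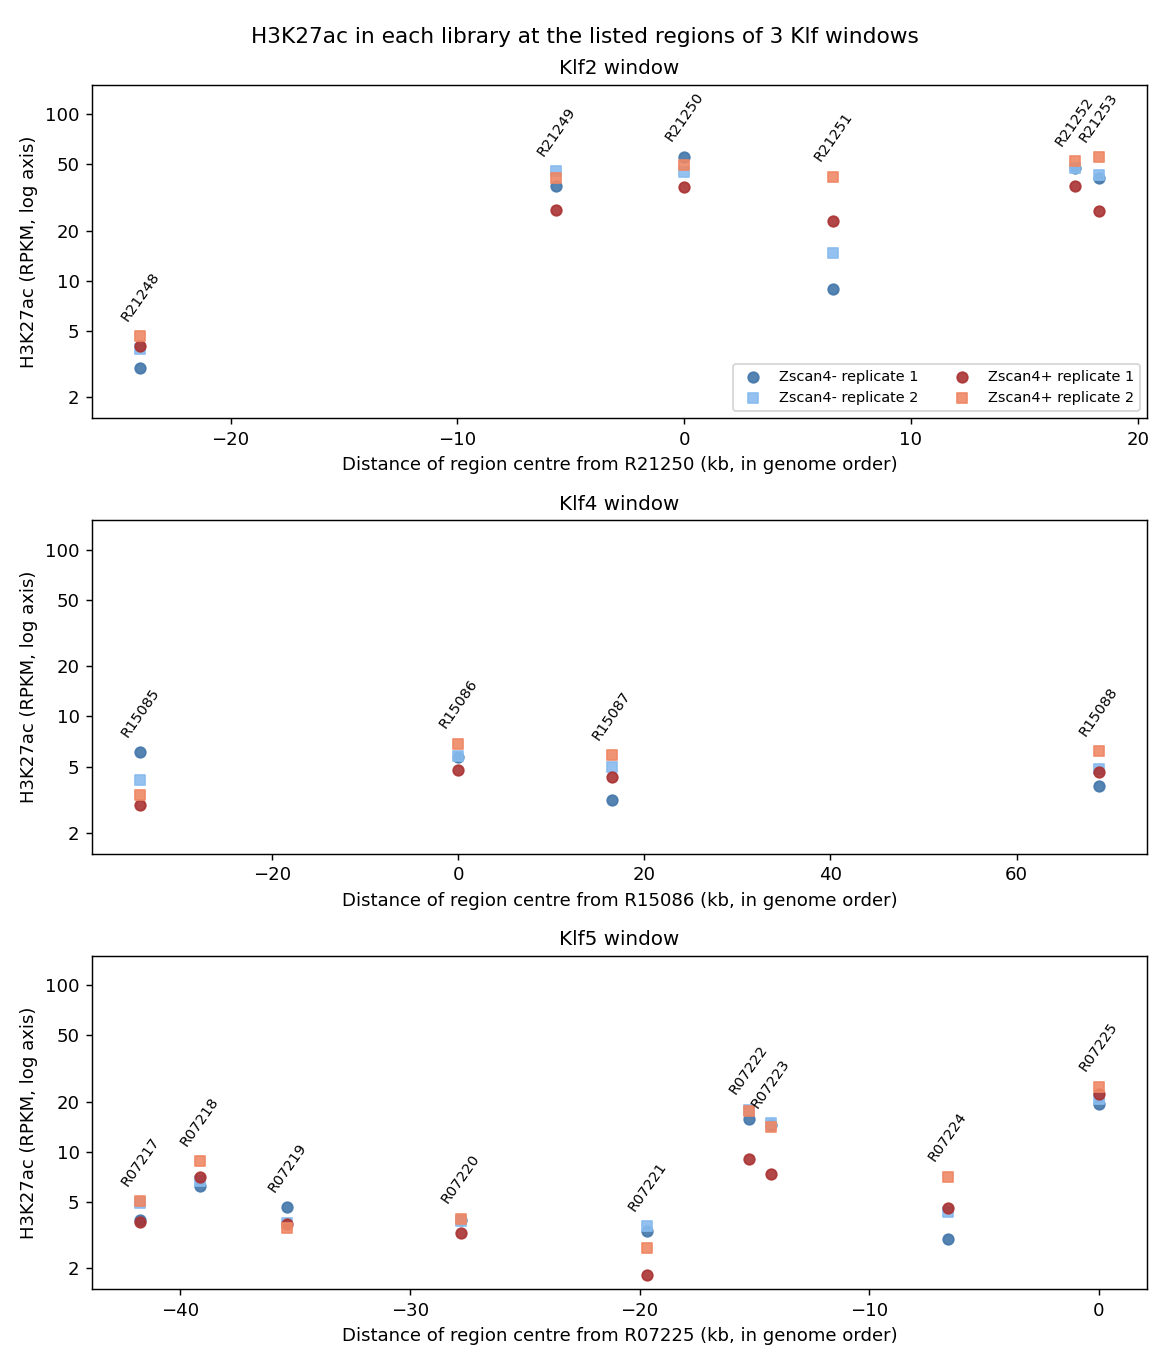
H3K27ac in RPKM (log axis) at each listed region of the 3 windows, by library, against the distance in kb of the region's centre from the highest region of its window. At R21251 both Zscan4+ libraries (22.75 and 42.27 RPKM) lie above both Zscan4- libraries (8.93 and 14.73 RPKM), while the 4 other narrow Klf2 regions overlap between groups.

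The Klf2 window held some of the regions with the highest RPKM of the list. R21250 (chr8:74840429-74840691, 262 bp) had 55.68 and 44.91 RPKM in Zscan4- replicates 1 and 2, and 36.74 and 49.63 RPKM in Zscan4+ replicates 1 and 2. R21252 (chr8:74857653-74857931, 278 bp) had 47.77 and 47.8 RPKM in Zscan4- and 36.99 and 52.42 RPKM in Zscan4+ replicates 1 and 2. The groups overlapped at both, and in each case Zscan4+ replicate 1 was the lowest library. By mean level these 2 regions exceeded 99.5% and 99.4% of all listed regions. R21249 (chr8:74834805-74835048, 243 bp) had 37.26 and 45.41 RPKM in Zscan4- and 26.78 and 41.62 RPKM in Zscan4+ replicates 1 and 2. R21253 (chr8:74858740-74858968, 228 bp), 0.8 kb beyond R21252, had 41.48 and 42.97 RPKM in Zscan4- and 26.15 and 55.37 RPKM in Zscan4+ replicates 1 and 2. At R21253 the Zscan4+ replicates lay on either side of the Zscan4- libraries. These 4 regions exceeded 98.5% to 99.5% of the list by level in means of 37.77 to 46.74 RPKM. These ranks are not matched for width. Regions of 229 to 300 bp had a median of 18.22 RPKM over the list, and regions over 900 bp one of 4.68 RPKM. The high level was thus not shared by all narrow regions, but the 4 regions were not ranked within a width class. Their log2 differences were -0.3 at R21249, -0.23 at R21250, -0.12 at R21252 and -0.15 at R21253, with standard errors of 0.43 and limma adjusted p of 0.73, 0.81, 0.91 and 0.88. Without Zscan4+ replicate 2, R21253 was called lower (log2 difference -0.68, limma adjusted p = 0.038), a setting in which 31.5% of all regions were called lower.

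R21251 (chr8:74847040-74847254, 214 bp), between R21250 and R21252, rose in Zscan4+ cells. It had 8.93 and 14.73 RPKM in Zscan4- replicates 1 and 2, from 19 and 56 reads. In Zscan4+ replicates 1 and 2 the values were 22.75 and 42.27 RPKM, from 89 and 144 reads. Both Zscan4+ libraries lay above both Zscan4- libraries, as at 18.6% of all regions. The exact 95% counting intervals were 5.38 to 13.95 and 11.13 to 19.13 RPKM in Zscan4-, against 18.27 to 27.99 and 35.65 to 49.76 RPKM in Zscan4+. Intervals of Zscan4- replicate 2 and Zscan4+ replicate 1 overlapped slightly, and the Zscan4+ replicates differed by more than counting error. The means were 11.83 ± 4.1 and 32.51 ± 13.8 RPKM (SD, n = 2), which is 1.4 on the log2 scale (standard error 0.4), or 2.63-fold on the log2(RPKM + 0.5) scale (limma adjusted p = 0.0057). The difference was 1.3 in replicate 1 and 1.49 in replicate 2, and it exceeded that of 94.3% of all listed regions. Pooled over replicates there were 75 reads from Zscan4- and 233 from Zscan4+ cells. Scaled to the totals this is a 2.52-fold excess, with an exact 95% interval from 1.93 to 3.31. That interval covers counting error only and leaves out the spread between libraries. The limma adjusted p was 0.9 without Zscan4- replicate 1 (log2 difference 1.05) and 0.4 without Zscan4- replicate 2 (1.74), where the median standard error of the list rose from 0.36 to 0.65 and 0.64. In the other 12 settings the call was kept. In bulk libraries such as these, more cells carrying the mark and more of the mark per cell cannot be told apart.

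Within each library, R21251 was also set against R21250. This ratio does not depend on how libraries are scaled, but it uses the same R21251 values as the test above and is no further support for it. The RPKM of R21251 was 16.0% and 32.8% of that of R21250 in Zscan4- replicates 1 and 2, and 61.9% and 85.2% in Zscan4+ replicates 1 and 2. R21252, by comparison, stood at 85.8% and 106.4% of R21250 in Zscan4- and at 100.7% and 105.6% in Zscan4+ replicates. On the log2(RPKM + 0.5) scale the ratio of R21251 to R21250 was 1.62 higher in Zscan4+ cells, and R21250 alone had a log2 difference of -0.23 (exact two-sided permutation p = 0.333, the smallest that 2 against 2 can give, and 0.592 adjusted over the 16 ratios computed in the 3 loci). Of the other ratios to R21250, that of R21248 also did not overlap between the groups, at 0.53 higher in Zscan4+ cells with the same exact p. Most of the 16 ratios lacked overlap, so its absence does not mark out a region.

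**Figure D2:**
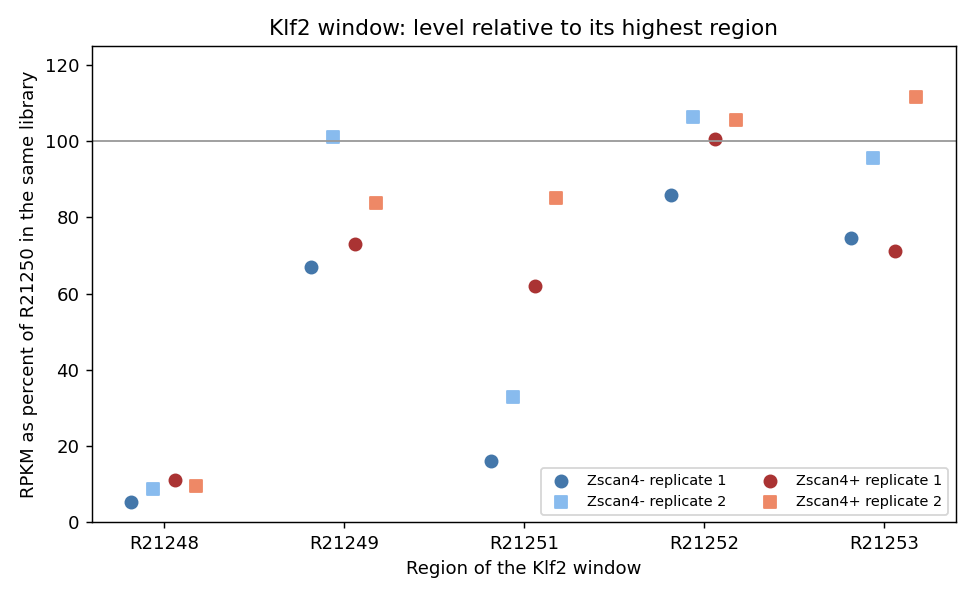
RPKM of 5 regions of the Klf2 window as a percentage of R21250, the highest region of the window, in the same library. R21251 moves from 16.0% and 32.8% in Zscan4- libraries to 61.9% and 85.2% in Zscan4+ libraries, while R21249, R21252 and R21253 overlap between groups.

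The width of R21251 is the narrowest on the list, and calls over the list moved with width. In classes chosen after the data were seen, 119 of the 422 regions of exactly 214 bp (28.2%) were called higher in Zscan4+ cells and 0 lower. Of the 105 regions of 215 to 227 bp, 24 (22.9%) were called higher and 0 lower. Of the 721 regions of exactly 228 bp, the width of R21253, 4 (0.555%) were called higher and 131 (18.2%) lower. The log2 difference of R21251 exceeded that of 80.3% of the 214 bp regions, against 94.3% of the whole list. How regions were called and given their width is not stated in the sources used here, nor in which libraries a region was called. Whether R21251 was listed from the Zscan4+ libraries alone is therefore not known. Its p-value and intervals do not allow for such a selection, and the part of width in the difference was not tested.

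**Figure D3:**
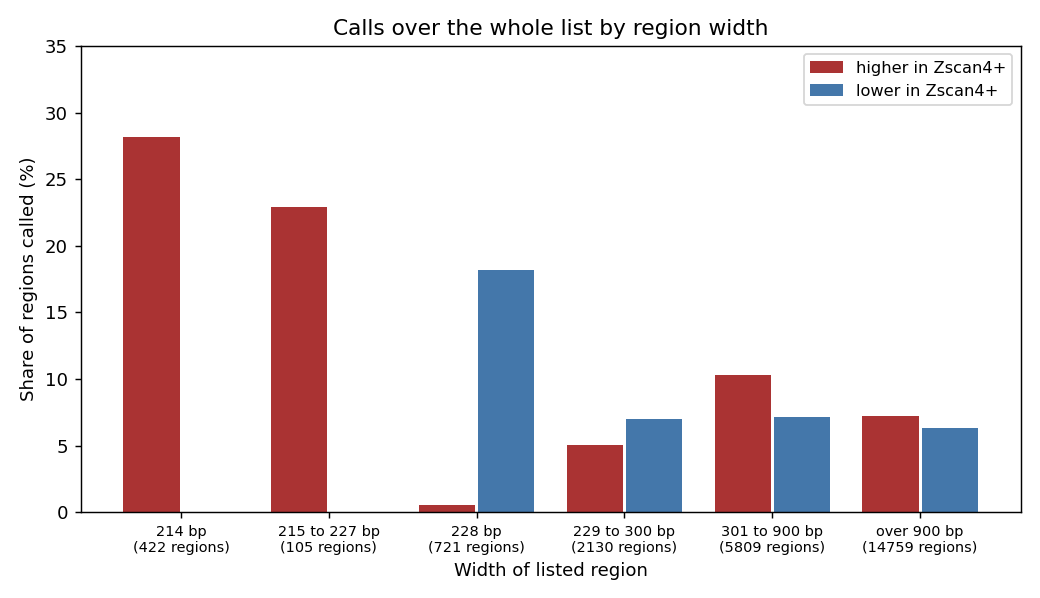
Share of all listed regions called higher (red) or lower (blue) in Zscan4+ cells by limma (adjusted p up to 0.05), by region width in bp. The 214 bp class that holds R21251 has 28.2% higher and no lower calls, and the 228 bp class has 0.555% higher and 18.2% lower calls.

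The sixth Klf2 region, R21248 (chr8:74816090-74817059, 969 bp), lay at an ordinary level, with 3.01 and 3.89 RPKM in Zscan4- and 4.06 and 4.67 RPKM in Zscan4+ replicates 1 and 2. Zscan4+ was above Zscan4- in every library, as at 18.6% of all regions, but the log2 difference of 0.31 (standard error 0.35) did not pass the test (limma adjusted p = 0.65). In RefSeq order Klf2 lies between Ap1m1, an adaptor protein subunit of clathrin-coated vesicles, and Eps15l1, an endocytosis factor. The files link no region to a gene, so which of these genes a region of the window belongs to was not determined. Within 1 Mb of the window, 7 of 72 regions were called higher and 4 lower, against 8.01% and 6.82% of all regions. The median log2 difference of these neighbours was -0.08, against -0.17 over the list. The members of the window had a median level of 39.63 RPKM, against 4.63 RPKM for those neighbours. The neighbours were not matched for width. Over the list, regions of 229 to 300 bp had a median of 18.22 RPKM and regions over 900 bp 4.68 RPKM.

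At Klf4 no region passed the test, and the distal region had nearly the same mean level in both states. R15086 (chr4:55476296-55478195, 1899 bp), the 1 listed region in the distal span, had 5.67 and 5.75 RPKM in Zscan4- and 4.78 and 6.85 RPKM in Zscan4+ replicates 1 and 2. The Zscan4+ replicates lay on either side of the Zscan4- libraries, and the log2 difference was 0.0046 (standard error 0.36), with a 95% interval of -0.7 to 0.71 (limma adjusted p = 1.0). In pooled reads the ratio was 1.0, with an exact 95% interval of 0.86 to 1.17, which covers counting error only. R15087 (chr4:55492998-55494466, 1468 bp), 14.8 kb further on and just past that span, had 3.15 and 4.95 RPKM in Zscan4- and 4.32 and 5.86 RPKM in Zscan4+ replicates 1 and 2. R15088 (chr4:55545516-55546676, 1160 bp), the last listed region of the window, had 3.82 and 4.81 RPKM in Zscan4- and 4.67 and 6.17 RPKM in Zscan4+ replicates 1 and 2. The groups overlapped at both, and within each replicate number the Zscan4+ library was the higher. Their log2 differences were 0.31 and 0.29 (limma adjusted p = 0.64 and 0.67).

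R15085 (chr4:55442605-55443512, 907 bp), the listed region of the Klf4 window farthest from R15088, was the 1 region there with both Zscan4+ libraries below both Zscan4- libraries, as at 35.1% of all regions. It had 6.1 and 4.16 RPKM in Zscan4- and 2.95 and 3.39 RPKM in Zscan4+ replicates 1 and 2. The log2 difference was -0.6 (standard error 0.35, limma adjusted p = 0.28). With the replicate block and median centring together it was called lower, at -0.5 and adjusted p = 0.034, a setting that called 24.5% of all regions lower. Within a library, R15085 stood at 107.6% and 72.3% of R15086 in Zscan4- and at 61.7% and 49.5% in Zscan4+ replicates 1 and 2. R15088 stood at 67.4% and 83.7% of R15086 in Zscan4- and at 97.7% and 90.1% in Zscan4+. Relative to the distal region, R15085 was thus lower and R15088 higher in Zscan4+ libraries without overlap, with log2 ratio differences of -0.6 and 0.29 (exact permutation p = 0.333 for each). All 4 Klf4 regions were between 907 and 1899 bp wide, with mean levels of 4.15 to 5.76 RPKM, around the middle of the list at its 41.8th to 63.3rd percentile. Within 1 Mb of the window 0 of 20 neighbouring regions were called higher and 5 lower, against 8.01% and 6.82% of all regions. The median log2 difference of these neighbours was -0.41, against -0.17 over the list. The next listed region, R15089, 493.9 kb past the window, was among the neighbours called lower, from 9.57 and 9.48 RPKM to 3.32 and 4.7 RPKM (log2 difference -1.17, limma adjusted p = 0.013).

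**Figure D4:**
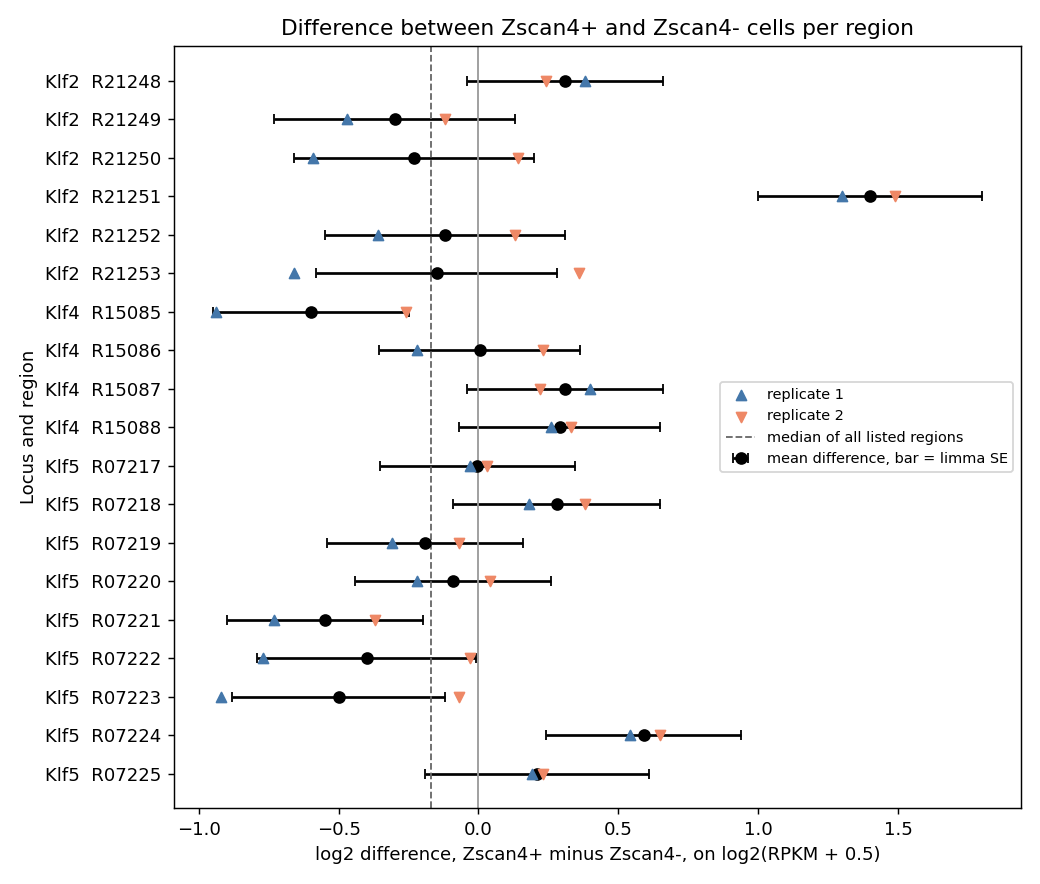
log2 difference of H3K27ac, Zscan4+ minus Zscan4-, at the 19 regions, on the log2(RPKM + 0.5) scale. Black points are the mean with the limma standard error, triangles the difference in replicate 1 and replicate 2, and the dashed line the median of all listed regions (-0.17). R21251 of Klf2 stands at 1.4, and all other regions lie between -0.6 and 0.59.

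The Klf5 window was the most widely covered, with listed regions over 22.1% of its length, against 3.7% at Klf2 and 4.2% at Klf4. R07220 (chr14:99708247-99715324) was the widest region of the entire list, at 7077 bp. It had 3.9 and 3.85 RPKM in Zscan4- and 3.28 and 3.97 RPKM in Zscan4+ replicates 1 and 2, from 274 to 484 reads. The groups overlapped, and the log2 difference was -0.09 with a 95% interval of -0.78 to 0.6 (limma adjusted p = 0.91). The pooled reads, 758 and 871, gave a ratio of 0.93 with an exact 95% interval of 0.84 to 1.03, which covers counting error only.

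Around R07220, 4 regions on its left and right did not pass the test, with mean levels from the 9.5th percentile of the list (R07221) to the 72.7th (R07218). R07217 (chr14:99696972-99698694, 1722 bp) had 3.91 and 4.97 RPKM in Zscan4- and 3.81 and 5.07 RPKM in Zscan4+ replicates 1 and 2, nearly the same pair of values in both states. R07218 (chr14:99699606-99701243, 1637 bp) had 6.21 and 6.67 RPKM in Zscan4- and 7.12 and 8.83 RPKM in Zscan4+ replicates 1 and 2. R07218 was higher in both Zscan4+ libraries, as at 18.6% of all regions, at a log2 difference of 0.28 (limma adjusted p = 0.69). It was called higher (0.38, limma adjusted p = 0.033) with the replicate block and median centring together, which called 20.7% of all regions higher. R07219 (chr14:99703555-99704912, 1357 bp) had 4.67 and 3.73 RPKM in Zscan4- and 3.67 and 3.52 RPKM in Zscan4+ replicates 1 and 2. R07221 (chr14:99719410-99720404, 994 bp) had 3.34 and 3.57 RPKM in Zscan4- and 1.82 and 2.65 RPKM in Zscan4+ replicates 1 and 2, the lowest mean level of the 19. Both R07219 and R07221 were lower in each Zscan4+ library, as at 35.1% of all regions, at log2 differences of -0.19 and -0.55 (limma adjusted p = 0.8 and 0.34).

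A pair of narrow regions 0.7 kb apart showed low values in 1 Zscan4+ library. R07222 (chr14:99724220-99724449, 229 bp) had 15.82 and 17.95 RPKM in Zscan4- and 9.08 and 17.55 RPKM in Zscan4+ replicates 1 and 2. R07223 (chr14:99725167-99725397, 230 bp) had 14.44 and 14.93 RPKM in Zscan4- and 7.37 and 14.2 RPKM in Zscan4+ replicates 1 and 2. Zscan4+ replicate 1 was low at both, and Zscan4+ replicate 2 was near the Zscan4- level. Over the whole list, Zscan4+ replicate 1 also had the lowest median of the libraries, 3.8 RPKM. The log2 differences were -0.77 and -0.92 in replicate 1 and -0.03 and -0.07 in replicate 2, and the fit of both gave -0.4 and -0.5 (limma adjusted p = 0.57 and 0.44). Without Zscan4+ replicate 2 both were called lower, at -0.86 and -0.95 (limma adjusted p = 0.0087 and 0.0048), a setting in which 31.5% of all regions were called lower. R07223 was also called lower with the replicate block and median centring together (-0.4, limma adjusted p = 0.035), where 24.5% of all regions were.

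The last 2 regions of the Klf5 window had higher values in both Zscan4+ libraries, without passing the test. R07224 (chr14:99732248-99733725, 1477 bp) had 3.0 and 4.35 RPKM in Zscan4- and 4.59 and 7.1 RPKM in Zscan4+ replicates 1 and 2. Both Zscan4+ libraries lay above both Zscan4- libraries, with a log2 difference of 0.59 (standard error 0.35, limma adjusted p = 0.28), 0.54 in replicate 1 and 0.65 in replicate 2. R07224 was called higher with median centring (0.69, limma adjusted p = 0.027), where 14.1% of all regions were, with quantile normalization (0.71, 0.032; 13.8%) and with centring plus the replicate block (0.69, 0.0063; 20.7%). Its pooled reads, 158 in Zscan4- and 291 in Zscan4+, gave a ratio of 1.49 with an exact 95% interval of 1.22 to 1.82. That interval covers counting error only, without the spread between libraries, and is no further support for a difference. R07225 (chr14:99739201-99739946, 745 bp), the highest region of the window, had 19.45 and 20.86 RPKM in Zscan4- and 22.24 and 24.62 RPKM in Zscan4+ replicates 1 and 2. The groups did not overlap there either, but the log2 difference of 0.21 had a 95% interval of -0.58 to 1.0 (limma adjusted p = 0.81). At 18.6% of all regions both Zscan4+ libraries lay above both Zscan4- libraries, as at R07224 and R07225.

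Within each library, the Klf5 regions were also set against R07225. R07222 stood at 81.3% and 86.0% of R07225 in Zscan4- replicates 1 and 2, and at 40.8% and 71.3% in Zscan4+ replicates. R07221 stood at 17.2% and 17.1% of R07225 in Zscan4- and at 8.2% and 10.8% in Zscan4+ replicates. R07218, in contrast, stood at 31.9% and 32.0% in Zscan4- and at 32.0% and 35.9% in Zscan4+. R07225 is the denominator of all 8 ratios in this window and was itself higher in both Zscan4+ libraries, which lowers each ratio in those cells. The ratios reuse the regions' own values and are no further support for a difference. No ratio passed the test, since the exact permutation p of such a ratio cannot go below 0.333 (0.592 adjusted over the 16 ratios). Of the 19 regions, 5 had both Zscan4+ libraries above and 4 both below the Zscan4- libraries, against 18.6% and 35.1% of all regions. In RefSeq order Klf5 lies between Pibf1 and Klf12, another member of the Krüppel-like family. Within 1 Mb of the window 1 of 21 neighbouring regions was called higher and 1 lower, against 8.01% and 6.82% of all regions.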

How the data were processed

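The authors deposited RPKM values, rounded to 2 decimals, for one list of 23946 regions shared by 4 H3K27ac libraries, per the file headers. Per the submitters' processing notes, Bowtie and HOMER were used on build mm9. The method of region calling is not given in the sources used here, nor is any tool version. Neither an input library nor an mm9 annotation was used, so regions carry no gene, exon or cell type assignment, the cell type could not be checked against markers, and the list of other network genes was not used. Coordinates are as deposited.

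Values times width fell on whole multiples of one step per library, taken as 1 read: of values below 50 reads, 97.17% to 99.97% lay within 0.1 of a whole number. Counting intervals and the floor of 3 reads (at most 1.41 RPKM at R21251) cover counting error only. Groups were compared over all regions with limma 3.58.1 in R 4.3.3, with a variance trend, on log2(RPKM + 0.5). A minimum mean of 0.5 RPKM was set, which all 19 regions passed. P-values are two-sided and adjusted by Benjamini-Hochberg over all regions. limma shares one variance between regions of a level. The main fit neither pairs nor centres the libraries, so shifts between whole libraries enter that variance. Its median standard error over the list was 0.36, against 0.21 with median centring and 0.16 with the replicate block and median centring. Single ratios and the weighted means of loci had an exact permutation test over libraries (Python 3.11.15). The fit was tested on simulated data without shifts between whole libraries, so that test does not cover the shifts seen here. Replicate numbers pair libraries, since the labels give replicate 2 a separate library preparation, and deviations of same-numbered libraries correlated at 0.35. All regions in the 3 windows are named; the windows and lists were chosen with earlier results of these data known. Alternatives were the replicate block, pseudocounts, minimums, scalings, voom on recovered reads and leaving out each library.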

Additional observations from a re-analysis of the deposited data

How the results depend on the processing

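Of 266 values of the 19 regions under 14 other settings, 237 kept their direction and side of the threshold, 9 gained and 2 lost a call, and 18, none called, changed sign. The sign changes were of R07217 (0.09 with median centring, with or without the replicate block, and 0.1 with quantile normalization), R07220 (0.0069 with centring, with or without the block, and 0.02), R21252 and R21253 (0.09 and 0.07 with quantile normalization) and R15086 (-4.1e-05 with voom on recovered reads). Leaving out 1 library gave ranges of -0.61 to 0.02 at R21249, -0.37 to 0.13 at R21252, -0.68 to 0.39 at R21253, -0.23 to 0.24 at R15086, -0.19 to 0.18 at R07217, -0.21 to 0.03 at R07220 and -0.86 to 0.06 at R07222. Klf regions called higher (1) numbered 2 with median centring or quantile normalization, 3 when centring was joined to the replicate block, and 0 to 1 with a library left out. Those called lower (0) numbered 2 with the block and centring, and 0 to 3 with a library left out. The block alone changed no call at the 3 loci. Over the list, higher calls (1917) numbered 3375 with median centring, 3307 with quantile normalization and 4949 with the block and centring, and 1101 to 3119 with a library left out. Lower calls (1632) rose to 2603 under the replicate block, and numbered 3622 with centring, 3278 with quantile normalization and 5864 with the block and centring, and 59 to 7547 with a library left out. Where a group keeps 1 library, its spread is taken from the other group, and elsewhere the cause was not tested. The log2 ratio difference of R21251 to R21250 (1.62) ran from 1.12 to 2.12 with a library left out, and that of R15085 to R15086 (-0.6) from -0.86 to -0.34. With 19 reads in Zscan4- replicate 1 and 75 over both replicates, R21251 has the fewest Zscan4- reads of the 19 regions.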

Other observations

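For the highest region of each locus, the listed regions outside the windows whose 4 log2 values lay closest were named by Euclidean distance over the 4 libraries. For R21250 of Klf2 they were R03160 (chr11:49017285-49017532, distance 0.165), with 49.7 and 44.22 RPKM in Zscan4- and 37.2 and 49.33 RPKM in Zscan4+ replicates 1 and 2, and R15072 (chr4:55018317-55018589, distance 0.209). R15072 lies on the chromosome of Klf4, outside its window. For R15086 of Klf4 they were R16778 (chr5:72558502-72559583) and R20039 (chr7:114737330-114738774), both at a distance of 0.071. For R07225 of Klf5 they were R05854 (chr13:54795718-54795946, 0.091) and R03021 (chr11:29592139-29592432, 0.132). With 4 libraries such likeness describes level as much as pattern.

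Just outside the windows, R07226 (chr14:99747475-99747838, 363 bp), 7.5 kb past the Klf5 window, had 21.9 and 22.49 RPKM in Zscan4- and 16.27 and 28.55 RPKM in Zscan4+ replicates 1 and 2, a level close to that of R07225. On either side of the Klf2 window, R21247 and R21254 had log2 differences of -0.24 and -0.3 (limma adjusted p = 0.74 and 0.65), at 2.33 to 5.0 RPKM in all libraries.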
